A study of Homo sapiens with 45 samples.

Results

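Genes of cholesterol and fatty acid synthesis were followed in 3 neuroblastoma cell lines treated with palbociclib (PB), an inhibitor of the cell cycle kinases CDK4 and CDK6. The genes were a list of 34 named symbols, all of which were found among the 29159 genes of the count tables. They were kept in 4 groups by role, namely 18 enzymes of the mevalonate and sterol pathway, 5 regulators, 7 enzymes of fatty acid synthesis and 4 proteins of sterol transport. RNA selected for polyA tails was sequenced from IMR-32, SH-SY5Y and SK-N-BE(2)C, which the study describes as lines of the adrenergic (ADRN) type. SK-N-BE(2)C and IMR-32 carry MYCN amplification and loss of 1p, and SH-SY5Y has no MYCN amplification. Each line was sampled as control, after 24 h of 1 μM PB and after longer PB, which was 7 d in SK-N-BE(2)C and 5 d in IMR-32 and SH-SY5Y, with 5 biological replicates a group, each a different passage. All cells grew in medium with serum that was replaced every few days. Control cultures were harvested together with those of 24 h, so at the longer time the effect of PB and that of days in culture cannot be told apart.

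Cholesterol is built from acetyl units through mevalonate, isoprenoids and squalene, and fatty acids are built from the same acetyl units by a separate set of enzymes. Most genes of both pathways are targets of the transcription factors SREBP1 and SREBP2, which SCAP escorts out of the endoplasmic reticulum when sterols are scarce and which the INSIG proteins hold back when sterols are plentiful. Growing cells need both products for new membrane, and neural cells make much of their own cholesterol.

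Levels are given as CPM, a gene's count over its library's total after scaling by TMM factors, in the order of replicates 1 to 5, and serve only to compare libraries for 1 gene, since no gene length enters them. Library totals ran from 13459219 to 25441812 counts, so 1 CPM was 18.5 reads in the median library. All 34 members passed the filter on low counts (10 reads in a median library, in at least 5 libraries) in every comparison, although ABCA1 passed within SK-N-BE(2)C and within SH-SY5Y only through the longer-treated libraries. A gene was called when edgeR's quasi-likelihood test gave a Benjamini-Hochberg adjusted p under 0.05 over all genes tested and the log2 fold change was beyond 0.5 in size. Fold changes are log2 values with their standard error (SE), and n was 5 libraries in each group. Of the 34 members 21 overlap a gene on the opposite strand, by the most bases FADS1 and FADS2 (each other), CYP51A1 (AKAP9) and NPC1 (RMC1), and their values are uncertain where reads of the other strand were counted.

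Libraries of IMR-32 and SK-N-BE(2)C stood apart in these genes and are named here because several values rest on them. Averaged over the 18 sterol genes, log2(CPM + 0.5) after 5 d in IMR-32 was 5.75, 5.79, 5.67 and 5.66 in replicates 1 to 4 and 6.23 in replicate 5. Replicate 5 was the highest library of its group for 16 of the 18 genes at 5 d but the lowest for 11 of 18 in the controls, where the same average was 6.40, 6.35, 6.27, 6.40 and 6.03. After 7 d in SK-N-BE(2)C the average was 6.72 in replicate 1, 5.88 in replicate 2, 5.52 in replicate 3, 6.02 in replicate 4 and 6.08 in replicate 5. Replicate 1 was the highest library for 17 of the 18 genes while replicate 3 was the lowest for 16. In the controls and at 24 h replicate 1 was also the highest for 11 and 13, and replicate 3 the lowest for 11 and 15. Values without 7 d replicate 1 alone keep control replicate 1, the highest control at 6.92. In SH-SY5Y the 5 d libraries lay between 5.40 and 5.52, below all 5 controls at 5.67 to 5.85. IMR-32 control replicate 5 also stood apart in marker genes, with a mean log2(CPM + 0.5) of 4.08 over 8 mesenchymal markers (2.50 to 2.71 in the other controls), 6.02 over 9 adrenergic markers (6.42 to 6.93) and 7.97 over 10 S phase genes (7.37 to 7.61), and the part of these in the results was not tested. The 24 h replicate 5 of IMR-32 was at 3.51 over the mesenchymal markers (2.33 to 2.54 in the others) and 5.57 over the S phase genes (4.58 to 4.85), and it was the lowest library of its group for 13 of the 18 sterol genes. In S phase genes the high libraries of the longer time were also the highest of their groups, at 6.98 in IMR-32 replicate 5 (6.41 to 6.68 in the others) and 6.83 in SK-N-BE(2)C replicate 1 (5.84 to 6.65). Several longer-time values are given with and without these libraries.

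**Figure D1:**
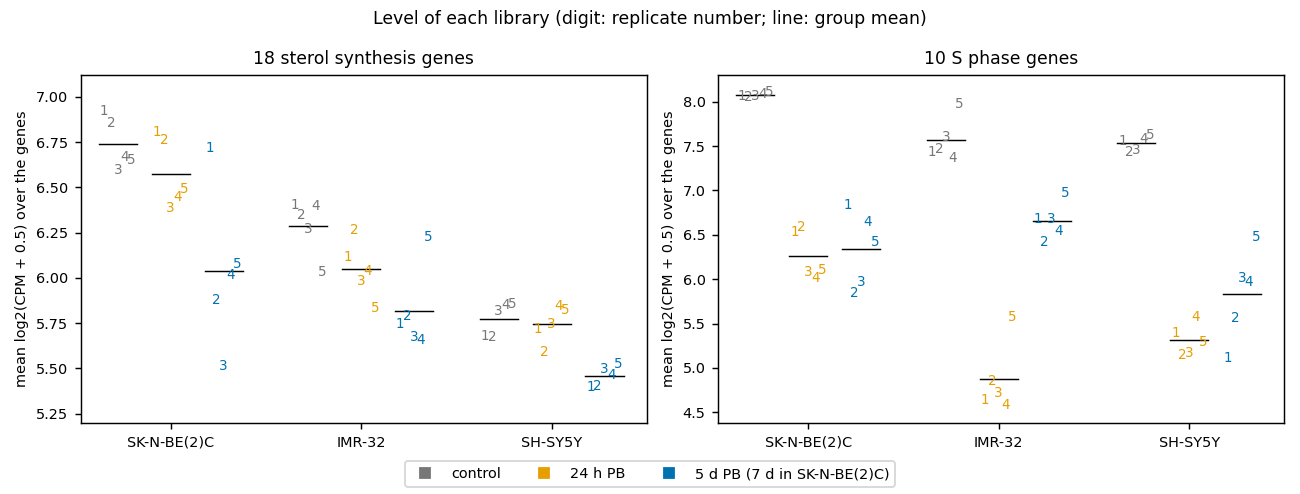
Mean log2(CPM + 0.5) per library over the 18 sterol synthesis genes (left) and over 10 S phase genes (right), by line and treatment; digits are replicate numbers and lines are group means. IMR-32 replicate 5 at 5 d (6.23) and SK-N-BE(2)C replicate 1 at 7 d (6.72) sit above the other libraries of their groups in the left panel.

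After 24 h few of the 34 genes were called. Without the fold change limit the counts were 7 for SK-N-BE(2)C, 8 for IMR-32 and 17 for SH-SY5Y, where 46.8%, 33.1% and 49.2% of all genes were called. SK-N-BE(2)C had 1 member called higher (2.94%), TM7SF2, and 1 called lower, ACAT2, where 10.9% of all 14055 genes tested were called higher and 10.6% lower. For IMR-32 no member was called higher and 3, ACAT2, IDI1 and FDPS, were called lower (8.82%), against 7.87% and 10.5% of 14293 genes. SH-SY5Y had TM7SF2 called higher and 4 members, ACAT2, FDPS, EBP and INSIG1, called lower (11.8%), against 10.5% and 11.0% of 14547 genes. These shares were near or below those of all genes. The IMR-32 count was 6 without control replicate 5, 5 without 24 h replicate 2 and 5 without replicate number 5. Shares of all genes in those refits are not given, so these counts cannot be set against them. The median log2 fold change of the members was -0.11, -0.17 and -0.01 in the 3 lines, where that of all genes was 0.02, 0.06 and 0.04. ACAT2 was the only member called in the same direction in all 3 lines at 24 h, where 5.81% of the 12556 genes tested in every line were called lower and 2.84% higher in all 3.

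With longer PB more of the synthesis genes were called lower in each line. After 7 d SK-N-BE(2)C had 19 of the 34 members called lower (55.9%) and 4 higher (11.8%), where 22.3% of all genes were called lower and 24.5% higher. After 5 d, 13 were called lower (38.2%) and 1 higher (2.94%) in IMR-32, against 15.5% and 16.6%. SH-SY5Y at 5 d had 10 called lower (29.4%) and 6 higher (17.6%), against 17.3% and 18.6%. ABCA1 is among those called higher in SK-N-BE(2)C and SH-SY5Y. Without the fold change limit 27 members were called for SK-N-BE(2)C, 24 for IMR-32 and 27 for SH-SY5Y, where 71.1%, 51.0% and 65.4% of all genes were. The members' median was -0.60, -0.44 and -0.31, while that of all genes lay between 0.00 and 0.01. HMGCS1, ACAT2, FDPS, SQLE, INSIG1, FADS1 and ELOVL6 were called lower in all 3 lines, TM7SF2 was called higher in all 3, where 6.50% and 6.91% of the 12556 genes tested in every line were, and no member was called in opposite directions in different lines. ELOVL6 lost its IMR-32 call with a replicate block, and some calls of SQLE, FADS1, ELOVL6 and TM7SF2 were lost in refits given with each gene. Without replicate 5 the IMR-32 count was 20 lower and 1 higher. Without replicate 1 of the 7 d group the SK-N-BE(2)C count was 20 lower and 3 higher. Shares of all genes in these refits are not given, so the changes in count cannot be read as particular to the members. The 24 h and the longer comparison of a line share their controls and are not independent.

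**Figure D2:**
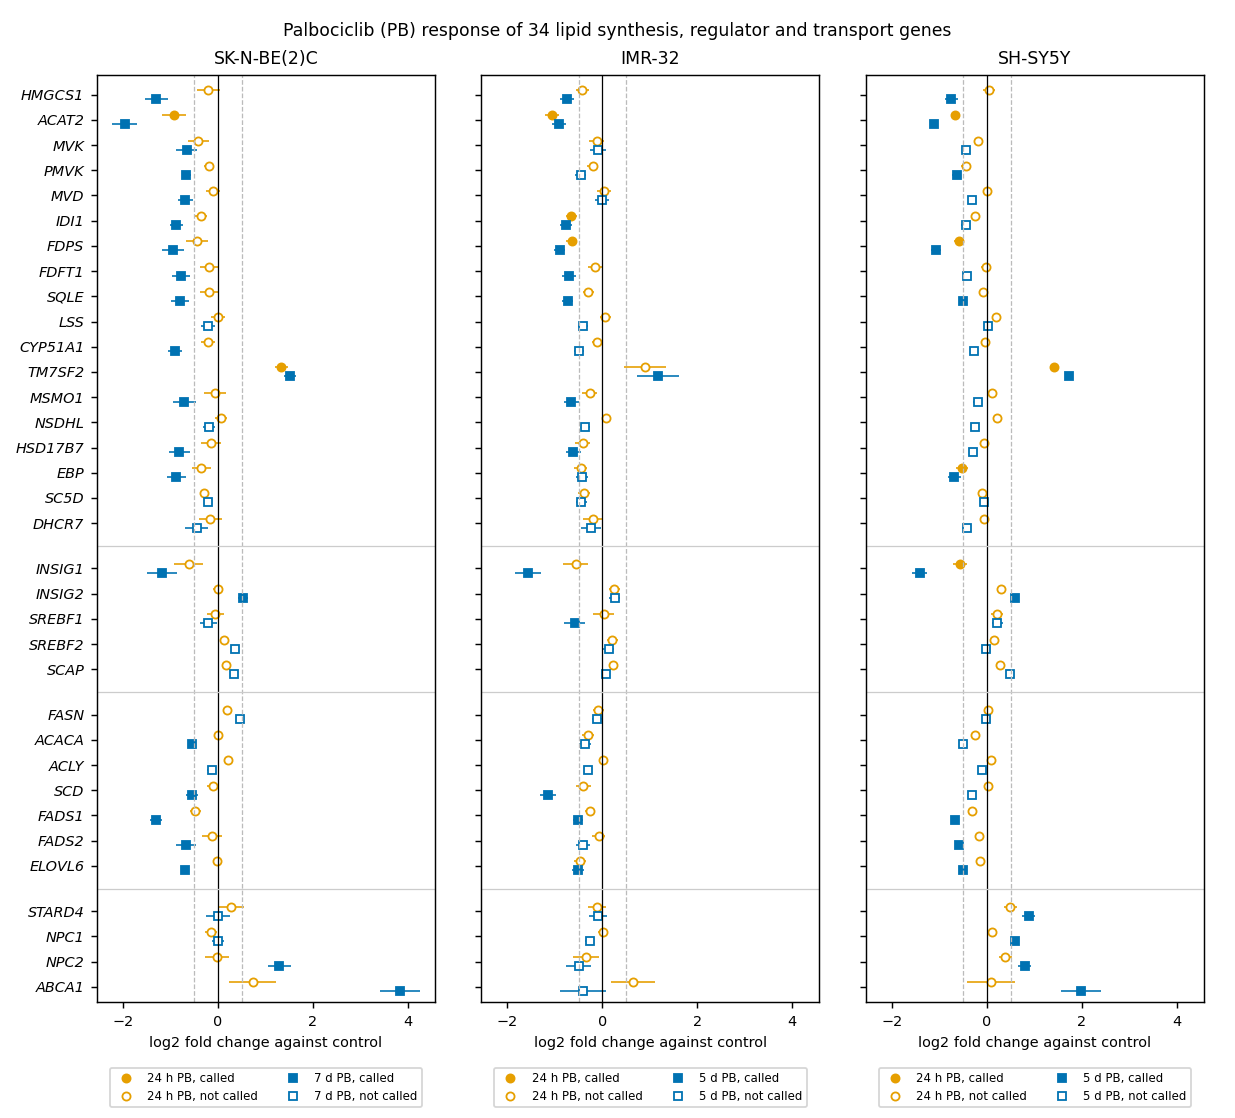
Log2 fold change against control of the 34 members in each line after 24 h (circles) and after longer PB (squares), with bars for the SE; filled symbols were called and dashed lines mark the limit of 0.5. Of the sterol enzymes in the top block, 16 of 18 squares are below 0 in all lines and that of TM7SF2 is above 0 in each.

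Of the 18 sterol enzymes, 13 were called lower in SK-N-BE(2)C at 7 d, 8 in IMR-32 and 6 in SH-SY5Y at 5 d, with medians of -0.74, -0.47 and -0.42. These were 72.2%, 44.4% and 33.3% of the 18, where 22.3%, 15.5% and 17.3% of all genes were called lower. The log2 fold change was below 0 in all 3 lines for 16 of the 18. The exceptions were TM7SF2 and LSS, the cyclase that makes lanosterol, which was called in no line (-0.22 ± 0.15, -0.41 ± 0.11 and 0.02 ± 0.07).

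ACAT2 (chr6:160183077-160200144 on GRCh37) encodes the cytosolic thiolase that joins acetyl-CoA units ahead of the mevalonate pathway. ACAT2 stood at 174, 175, 163, 164 and 163 CPM in the SK-N-BE(2)C controls, 108, 105, 75.2, 75.4 and 80.9 after 24 h and 82.7, 28.7, 22.7, 39.8 and 42.0 after 7 d. IMR-32 controls gave 102, 97.3, 104, 101 and 119.8 CPM, the 24 h libraries 53.3, 59.4, 45.8, 47.6 and 44.4 and the 5 d libraries 50.5, 46.8, 47.4, 43.8 and 81.6. For SH-SY5Y, ACAT2 was at 74.9, 70.1, 85.5, 80.9 and 84.2 CPM in controls, 47.3, 42.2, 50.3, 59.6 and 55.3 at 24 h and 32.8, 36, 38.4, 35.9 and 42.0 at 5 d. Every treated library of each line lay below every control of that line at both times. ACAT2 fell early, with log2 fold changes at 24 h of -0.92 ± 0.25 in SK-N-BE(2)C (adjusted p = 0.00835), -1.06 ± 0.15 in IMR-32 (adjusted p = 4.25e-05) and -0.66 ± 0.09 in SH-SY5Y (adjusted p = 7.12e-06). With longer PB ACAT2 gave -1.96 ± 0.26 in SK-N-BE(2)C (adjusted p = 9.21e-06), -0.92 ± 0.14 in IMR-32 (adjusted p = 1.07e-04) and -1.11 ± 0.09 in SH-SY5Y (adjusted p = 1.00e-08). Between 24 h and 7 d ACAT2 gave -1.04 ± 0.26 in SK-N-BE(2)C (adjusted p = 0.00306). Between 24 h and 5 d it gave -0.45 ± 0.09 in SH-SY5Y, inside the limit, where the 5 d libraries all lay below the 24 h libraries, and 0.14 ± 0.14 in IMR-32. Whether the lines differed in this later step was not tested. The IMR-32 value at 5 d was -1.11 ± 0.10 without the high library, and that of SK-N-BE(2)C at 7 d was -2.34 ± 0.17 without replicate 1.

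HMGCS1 (chr5:43287572-43313614) makes HMG-CoA, the substrate of the rate-limiting reductase. HMGCS1 stood at 397, 378, 289, 301 and 309 CPM in the SK-N-BE(2)C controls, 369, 332, 239, 262 and 253 after 24 h and 229.9, 95.0, 72.5, 139 and 143 after 7 d. IMR-32 controls gave 269, 281, 247, 273 and 224 CPM, the 24 h libraries 219, 204, 179, 189.9 and 173 and the 5 d libraries 125, 164, 116, 125 and 222. For SH-SY5Y, HMGCS1 was at 68.1, 69.2, 75.0, 94.3 and 99.5 CPM in controls, 71.1, 76.1, 79.2, 100.3 and 100.5 at 24 h and 39.4, 45.6, 51.3, 57.3 and 51.2 at 5 d. The 24 h libraries overlapped the controls in SK-N-BE(2)C and SH-SY5Y but not in IMR-32, and the longer-treated libraries lay below all controls in each line, with IMR-32 replicate 5 (222 CPM) just under the lowest control (224 CPM). HMGCS1 was not called at 24 h in any line (-0.20 ± 0.24, -0.42 ± 0.15 and 0.05 ± 0.13). With longer PB HMGCS1 gave -1.29 ± 0.24 in SK-N-BE(2)C (adjusted p = 2.34e-04), -0.74 ± 0.15 in IMR-32 (adjusted p = 6.68e-04) and -0.75 ± 0.13 in SH-SY5Y (adjusted p = 1.30e-04). Without 5 d replicate 5 IMR-32 gave -0.92 ± 0.11, and without 7 d replicate 1 SK-N-BE(2)C gave -1.58 ± 0.20.

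Of the enzymes that turn mevalonate into isoprenyl units, MVK, PMVK and MVD were called lower in SK-N-BE(2)C (-0.65 ± 0.22, -0.66 ± 0.09 and -0.68 ± 0.15). PMVK was also called in SH-SY5Y (-0.64 ± 0.10), and none of the 3 was called in IMR-32, where MVK and MVD stood at -0.09 ± 0.16 and -0.01 ± 0.15. PMVK in IMR-32 was at -0.45 ± 0.11 (adjusted p = 0.00419), inside the limit, and its 5 d libraries lay below all controls. The MVK call in SK-N-BE(2)C was lost without replicate number 2, 4 or 5. IDI1, the isomerase of the activated isoprene units, was called lower in IMR-32 already at 24 h (-0.65 ± 0.12, adjusted p = 8.37e-04) and was called at the longer time in IMR-32 (-0.76 ± 0.12) and SK-N-BE(2)C (-0.88 ± 0.14). Without the libraries named above IDI1 gave -0.94 ± 0.07 and -1.01 ± 0.12. In SH-SY5Y IDI1 stood at -0.45 ± 0.09, inside the limit.

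FDPS (chr1:155278539-155290457) makes farnesyl diphosphate, the branch point to sterols, ubiquinone and prenylated proteins. FDPS stood at 305, 266, 219, 249 and 233 CPM in the SK-N-BE(2)C controls, 223, 202, 162, 172 and 179 after 24 h and 240.3, 95.6, 75.5, 119 and 130.2 after 7 d. IMR-32 controls gave 265, 236, 239, 247 and 237 CPM, the 24 h libraries 159, 188, 144, 152 and 139.5 and the 5 d libraries 123, 118, 119, 107 and 175. For SH-SY5Y, FDPS was at 150.3, 139, 170.2, 163 and 162 CPM in controls, 108, 87.6, 107, 112 and 115 at 24 h and 63.1, 61.7, 83.3, 75.4 and 94.5 at 5 d. All treated IMR-32 and SH-SY5Y libraries were below all controls at both times, and SK-N-BE(2)C replicate 1 at 7 d (240.3 CPM) reached into the control range. FDPS was called at 24 h in IMR-32 (-0.64 ± 0.11, adjusted p = 5.25e-04) and SH-SY5Y (-0.59 ± 0.11, adjusted p = 1.82e-04). With longer PB FDPS gave -0.94 ± 0.23 in SK-N-BE(2)C (adjusted p = 0.00233), -0.89 ± 0.12 in IMR-32 (adjusted p = 1.90e-05) and -1.07 ± 0.11 in SH-SY5Y (adjusted p = 1.73e-07). Without replicate 1 of the 7 d group the SK-N-BE(2)C value was -1.28 ± 0.15, and without 5 d replicate 5 that of IMR-32 was -1.03 ± 0.09.

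The stretches before the RefSeq start sites of HMGCS1 and FDPS are shown for their matches to CCAAT, chosen with the matches known. Each is the 200 bases upstream of the start on the gene's own strand, 5′ to 3′, and capitals mark CCAAT, the letters bound by NF-Y, or its reverse complement ATTGG.
HMGCS1 (chr5:43313413-43313612, minus strand, GRCh38.p14): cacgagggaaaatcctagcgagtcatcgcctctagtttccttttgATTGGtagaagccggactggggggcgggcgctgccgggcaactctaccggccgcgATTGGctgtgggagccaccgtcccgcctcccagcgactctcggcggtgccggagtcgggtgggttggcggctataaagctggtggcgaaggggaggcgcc
FDPS (chr1:155308666-155308865, plus strand, GRCh38.p14): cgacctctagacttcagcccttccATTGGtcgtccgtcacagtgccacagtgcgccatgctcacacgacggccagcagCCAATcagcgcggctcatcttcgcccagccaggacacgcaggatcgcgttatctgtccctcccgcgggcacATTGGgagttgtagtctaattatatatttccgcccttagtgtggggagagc
HMGCS1 held 2 matches to CCAAT and FDPS held 3. Another HMGCS1 window held none, and neither did those of FADS1 and ELOVL6, which were likewise called lower in all 3 lines. Over the windows of 250 bases before to 50 after each start, searched on both strands, CCAAT was found for 13 of the 15 sterol enzymes with a window (86.7%) and for 39.7% of 27305 RefSeq genes. The GC box letters GGGCGG were found for 14 of the 15 (93.3%) and for 48.3% of all genes. TCACNCCAC, letters like those of a sterol regulatory element, were found for none of the 15 and for 1.39% of all genes. A gene with several windows counted if any of them matched, and 30 of the 34 members had a window. Of these 30, 9 had more than 1 window, as did 19.0% of all genes. The 27305 were all RefSeq genes with a window and not only genes expressed in these lines. ACAT2, FDFT1, SQLE and FASN had no window. Over all 30, CCAAT was found for 21 (70.0%).

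FDFT1, which condenses farnesyl diphosphate to squalene, was called lower in IMR-32 (-0.70 ± 0.14, adjusted p = 8.07e-04) and SK-N-BE(2)C (-0.77 ± 0.19, adjusted p = 0.00239) at the longer time and stood at -0.41 ± 0.09 in SH-SY5Y. SQLE, the epoxidase that commits squalene to sterols, fell in all 3 lines. SQLE stood at 407, 400.1, 333, 341 and 349 CPM in the SK-N-BE(2)C controls, 371, 377, 274, 285 and 299 after 24 h and 324, 177, 117, 216 and 213 after 7 d. IMR-32 controls gave 357, 363, 319, 357 and 335 CPM, the 24 h libraries 293, 291, 258, 278 and 282 and the 5 d libraries 182, 189.6, 184, 169.7 and 294. For SH-SY5Y, SQLE was at 64.0, 62.5, 68.8, 75.3 and 83.6 CPM in controls, 69.4, 60.7, 62.3, 73.1 and 74.7 at 24 h and 47.6, 50.5, 49.2, 52.7 and 52.3 at 5 d. At 24 h the groups overlapped in SK-N-BE(2)C and SH-SY5Y, and at the longer time the highest treated library of each line (324, 294 and 52.7 CPM) was below the lowest control (333, 319 and 62.5 CPM). No line was called for SQLE at 24 h, and the log2 fold changes at the longer time were -0.80 ± 0.20 in SK-N-BE(2)C (adjusted p = 0.00197), -0.73 ± 0.12 in IMR-32 (adjusted p = 1.47e-04) and -0.51 ± 0.08 in SH-SY5Y (adjusted p = 2.42e-05). Leaving out 5 d replicate 5 gave -0.89 ± 0.07 for SQLE and -0.88 ± 0.10 for FDFT1 in IMR-32, and leaving out 7 d replicate 1 gave -1.02 ± 0.16 and -1.03 ± 0.13 in SK-N-BE(2)C. The SH-SY5Y value sat at the limit, and the call was lost without control replicate 4 or 5 or without 5 d replicate 1 or 3 (-0.49, -0.44, -0.49 and -0.50).

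Among the enzymes that turn lanosterol into cholesterol, CYP51A1, MSMO1, HSD17B7 and EBP were called lower in SK-N-BE(2)C (-0.91 ± 0.15, -0.70 ± 0.24, -0.81 ± 0.22 and -0.88 ± 0.20). MSMO1 and HSD17B7, which act in the course of demethylation, were called in IMR-32 too (-0.65 ± 0.17 and -0.61 ± 0.16). EBP, the sterol isomerase, was called in SH-SY5Y both at 24 h (-0.52 ± 0.13) and at 5 d (-0.68 ± 0.13). The 24 h call of EBP was lost without control replicate 4 (-0.48) or 24 h replicate 2 (-0.46) and the MSMO1 call in SK-N-BE(2)C without replicate number 2 (-0.61). NSDHL, SC5D and DHCR7, which act at demethylation and in the last steps, were called in no line, although DHCR7 in SH-SY5Y was at 44.4 to 51.4 CPM after 5 d and 57.7 to 67.5 CPM in the controls (-0.43 ± 0.06, adjusted p = 3.47e-06). With a replicate block DHCR7 was called lower in SK-N-BE(2)C at 7 d (-0.51 ± 0.13, adjusted p = 0.00361), where it stood at -0.45 ± 0.24 without it.

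TM7SF2 (chr11:64879317-64883856), a reductase of the sterol C14 double bond, was the 1 sterol enzyme that rose. TM7SF2 stood at 14.3, 12.4, 10.5, 12.0 and 9.11 CPM in the SK-N-BE(2)C controls, 31.1, 30.8, 26.8, 29.0 and 29.7 after 24 h and 43.5, 26.6, 27.5, 35.6 and 33.2 after 7 d. IMR-32 controls gave 34.2, 31.5, 30.5, 35.1 and 4.44 CPM, the 24 h libraries 58.8, 68.0, 53.0, 58.4 and 14.2 and the 5 d libraries 71.1, 70.2, 51.2, 62.5 and 44.4. For SH-SY5Y, TM7SF2 was at 24.2, 31.2, 27.2, 27.0 and 22.6 CPM in controls, 82.3, 77.3, 70.1, 67.6 and 62.5 at 24 h and 96.3, 90.6, 87.7, 90.2 and 82.2 at 5 d. Each treated library of SK-N-BE(2)C and SH-SY5Y was above all controls at both times, and in IMR-32 all 5 d libraries were above all controls while replicate 5 was the lowest library of every group. At 24 h TM7SF2 gave 1.34 ± 0.13 in SK-N-BE(2)C (adjusted p = 6.60e-07), 0.90 ± 0.44 in IMR-32 (adjusted p = 0.135) and 1.42 ± 0.08 in SH-SY5Y (adjusted p = 4.41e-10), the second of them not called. With replicate 5 left out IMR-32 gave 0.86 ± 0.11 at 24 h (adjusted p = 7.38e-06), and with a replicate block TM7SF2 was called there too. With longer PB TM7SF2 gave 1.52 ± 0.13 in SK-N-BE(2)C (adjusted p = 4.04e-08), 1.18 ± 0.44 in IMR-32 (adjusted p = 0.0376) and 1.74 ± 0.08 in SH-SY5Y (adjusted p = 5.10e-11). With no filter on low counts the IMR-32 call at 5 d was lost (adjusted p = 0.0955). It was also lost in 9 of 20 refits that left out a library or replicate number, namely without control replicate 2 or 3, without 5 d replicate 1, 2 or 4, or without number 1, 2, 3 or 4, with log2 fold changes between 1.11 and 1.28, and without replicate 5 it was 1.0 ± 0.11 (adjusted p = 7.81e-07).

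LBR, an inner nuclear membrane protein with the same sterol reductase activity and no member of the list, moved the other way. Its log2 fold changes were -1.19 ± 0.25 in SK-N-BE(2)C (adjusted p = 0.00115), -0.90 ± 0.09 in IMR-32 (adjusted p = 9.52e-07) and -1.72 ± 0.13 in SH-SY5Y (adjusted p = 1.26e-08) at 24 h and -2.49 ± 0.26 in SK-N-BE(2)C (adjusted p = 6.89e-07), -1.27 ± 0.09 in IMR-32 (adjusted p = 1.37e-07) and -1.89 ± 0.13 in SH-SY5Y (adjusted p = 3.22e-09) at the longer time. The stretch before the TM7SF2 start is shown for comparison with the genes that fell, with capitals as before.
TM7SF2 (chr11:65111672-65111871, plus strand, GRCh38.p14): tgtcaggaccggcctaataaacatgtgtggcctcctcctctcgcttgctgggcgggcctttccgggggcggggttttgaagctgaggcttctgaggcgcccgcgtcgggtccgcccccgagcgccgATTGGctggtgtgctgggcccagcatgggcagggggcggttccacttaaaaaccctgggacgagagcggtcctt
It held 1 match to CCAAT and 4 to GGGCGG.

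**Figure D3:**
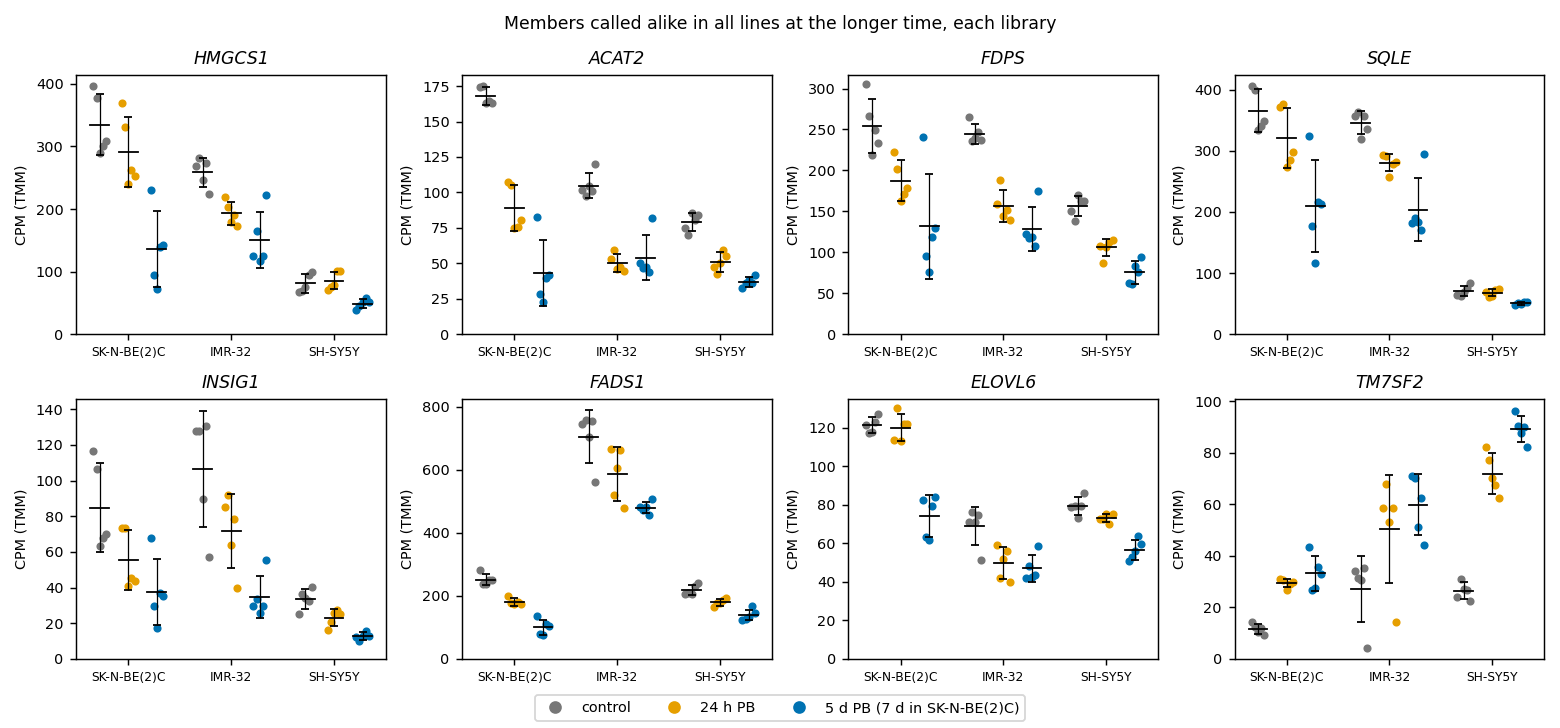
CPM of each library (points) for the 8 members called alike in all 3 lines at the longer time, by line, with group means (lines) and SD (bars, n = 5). The longer-treated libraries (blue) lie above the controls for TM7SF2 and below them for the other genes, except replicate 1 of SK-N-BE(2)C for FDPS (240.3 CPM) and INSIG1 (68.0 CPM) and replicate 5 of IMR-32 for ELOVL6 (58.8 CPM).

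INSIG1 (chr7:155089486-155101945), which holds SCAP and SREBP in the endoplasmic reticulum and is itself a target of SREBP, was the 1 regulator of 5 called lower in all lines. INSIG1 stood at 117, 106, 63.2, 67.8 and 69.9 CPM in the SK-N-BE(2)C controls, 73.6, 73.5, 40.9, 45.5 and 43.9 after 24 h and 68.0, 30.0, 17.6, 36.9 and 35.1 after 7 d. IMR-32 controls gave 128, 128, 89.7, 131 and 57.2 CPM, the 24 h libraries 85.3, 92.2, 63.7, 78.4 and 40.0 and the 5 d libraries 29.8, 33.9, 25.7, 29.9 and 55.3. For SH-SY5Y, INSIG1 was at 25.2, 36.6, 34.4, 32.2 and 40.3 CPM in controls, 16.0, 20.8, 25.9, 27.7 and 25.3 at 24 h and 12.3, 9.92, 12.8, 15.9 and 13.1 at 5 d. Longer-treated libraries were below all controls in IMR-32 and SH-SY5Y, and in SK-N-BE(2)C replicate 1 (68.0 CPM) lay among the controls. Log2 fold changes at 24 h were -0.61 ± 0.30 in SK-N-BE(2)C (adjusted p = 0.113), -0.56 ± 0.26 in IMR-32 (adjusted p = 0.115) and -0.57 ± 0.15 in SH-SY5Y (adjusted p = 0.00424), of which the last was called. That call was lost without control replicate 5 (-0.50) or 24 h replicate 1 (-0.46), and with a replicate block INSIG1 was called at 24 h in SK-N-BE(2)C too (-0.61 ± 0.17, adjusted p = 0.0101). With longer PB INSIG1 gave -1.18 ± 0.31 in SK-N-BE(2)C (adjusted p = 0.00324), -1.57 ± 0.27 in IMR-32 (adjusted p = 2.75e-04) and -1.42 ± 0.15 in SH-SY5Y (adjusted p = 4.46e-07). Without replicate 5 IMR-32 gave -1.95 ± 0.14, and without 7 d replicate 1 SK-N-BE(2)C gave -1.51 ± 0.27.

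INSIG2 (chr2:118846028-118868573), the paralog of INSIG1, was called higher in 2 lines. INSIG2 stood at 11.8, 10.3, 9.52, 10.1 and 10.6 CPM in the SK-N-BE(2)C controls, 10.1, 10.8, 11.7, 10.1 and 9.47 after 24 h and 16.4, 17.2, 15.8, 12.7 and 13.1 after 7 d. IMR-32 controls gave 9.04, 8.68, 8.09, 11 and 9.42 CPM, the 24 h libraries 12.0, 12.9, 9.95, 10.1 and 9.81 and the 5 d libraries 9.82, 11.7, 10.8, 10.0 and 11.5. For SH-SY5Y, INSIG2 was at 21.0, 24.7, 25.8, 23.5 and 20.5 CPM in controls, 28.9, 25.7, 27.2, 34.9 and 27.5 at 24 h and 35.1, 36.6, 36, 35.2 and 32.8 at 5 d. Its longer-treated libraries were above all controls in SK-N-BE(2)C and SH-SY5Y and overlapped them in IMR-32. With longer PB INSIG2 gave 0.53 ± 0.10 in SK-N-BE(2)C (adjusted p = 1.77e-04), 0.26 ± 0.11 in IMR-32 (adjusted p = 0.0721) and 0.58 ± 0.08 in SH-SY5Y (adjusted p = 6.67e-06), called in the first and the last. The SK-N-BE(2)C call was lost without control replicate 3 (0.49) or without 7 d replicate 1 (0.49) or 2 (0.47).

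SREBF2, which encodes SREBP2, was called in no line and stood at 0.36 ± 0.06 in SK-N-BE(2)C (adjusted p = 4.98e-05), 0.13 ± 0.12 in IMR-32 (adjusted p = 0.374) and -0.02 ± 0.08 in SH-SY5Y (adjusted p = 0.808) at the longer time. SCAP stood at 0.34 ± 0.06 in SK-N-BE(2)C (adjusted p = 1.67e-04), 0.08 ± 0.06 in IMR-32 (adjusted p = 0.291) and 0.48 ± 0.06 in SH-SY5Y (adjusted p = 5.81e-07), inside the limit in each line although its treated libraries in SH-SY5Y (198 to 214 CPM) were all above the controls (131 to 159 CPM). SREBF1, which encodes SREBP1, was called lower in IMR-32 at 5 d (-0.58 ± 0.23, adjusted p = 0.0447), where the libraries ranged from 65.0 to 83.4 CPM and the controls from 67.0 to 138 CPM. That call was lost in 14 of 20 refits without a library or replicate number, among them each of control replicates 1 to 4 and each of the 5 d replicates, and it stood at -0.76 ± 0.12 without replicate 5. SREBF1 in SK-N-BE(2)C and SH-SY5Y was at -0.20 ± 0.19 and 0.22 ± 0.13.

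The stretches before INSIG1 and SREBF2 are shown because SREBF2 held the only match to TCACNCCAC among the members, marked in capitals with the CCAAT matches.
INSIG1 (chr7:155297678-155297877, plus strand, GRCh38.p14): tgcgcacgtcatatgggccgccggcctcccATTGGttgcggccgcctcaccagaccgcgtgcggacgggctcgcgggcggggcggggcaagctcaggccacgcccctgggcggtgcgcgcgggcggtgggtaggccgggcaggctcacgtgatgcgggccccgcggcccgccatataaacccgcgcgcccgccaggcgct
SREBF2 (chr22:41832905-41833104, plus strand, GRCh38.p14): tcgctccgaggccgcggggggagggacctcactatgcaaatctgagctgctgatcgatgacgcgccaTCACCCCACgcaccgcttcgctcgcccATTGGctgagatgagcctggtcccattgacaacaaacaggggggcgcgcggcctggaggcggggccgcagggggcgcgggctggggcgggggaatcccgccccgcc
INSIG1 held 1 match to CCAAT and 4 to GGGCGG in this stretch, and SREBF2 held 1 to TCACNCCAC, 1 to CCAAT and 2 to GGGCGG.

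Among the 7 enzymes of fatty acid synthesis, the desaturases and the elongase were called lower in 1 or more lines, and FASN and ACLY were called in none. With longer PB SK-N-BE(2)C had 5 called lower (median of the 7, -0.55), IMR-32 had 3 (-0.40) and SH-SY5Y had 3 (-0.49), and none was called at 24 h. The longer-time shares were 71.4%, 42.9% and 42.9%, against 22.3%, 15.5% and 17.3% of all genes called lower. FADS1 (chr11:61567099-61596790), the delta-5 desaturase of polyunsaturated fatty acids, fell in all lines. FADS1 stood at 281, 237, 237, 251 and 249.5 CPM in the SK-N-BE(2)C controls, 200.2, 178, 173, 179.6 and 173 after 24 h and 135, 79.1, 76.4, 109 and 105 after 7 d. IMR-32 controls gave 744, 759, 703, 754 and 559.9 CPM, the 24 h libraries 666, 519, 606, 661 and 479 and the 5 d libraries 482, 471, 482, 457 and 507. For SH-SY5Y, FADS1 was at 205, 209, 207, 229.9 and 241 CPM in controls, 165, 176, 178, 187 and 192 at 24 h and 124, 128, 134, 166 and 146 at 5 d. The 24 h libraries were below all controls in SK-N-BE(2)C and SH-SY5Y, and the longer-treated ones in all 3 lines. With longer PB FADS1 gave -1.31 ± 0.12 in SK-N-BE(2)C (adjusted p = 9.70e-08), -0.51 ± 0.10 in IMR-32 (adjusted p = 5.51e-04) and -0.66 ± 0.08 in SH-SY5Y (adjusted p = 7.11e-07). In IMR-32 the call was lost without control replicate 1, 2 or 4 or without 5 d replicate 4 (-0.50, -0.49, -0.49 and -0.50). FADS2, the delta-6 desaturase, was called in SK-N-BE(2)C (-0.67 ± 0.21) and SH-SY5Y (-0.59 ± 0.06) and stood at -0.40 ± 0.14 in IMR-32. The SK-N-BE(2)C call of FADS2 was lost without replicate number 2 (-0.57). FADS1 and FADS2 overlap on opposite strands, and the sources used here do not say which strand was counted, so their values are uncertain, as are those of the other overlapping members.

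ELOVL6 (chr4:110967002-111120355), which lengthens saturated and monounsaturated chains, was called lower in all lines at the longer time. ELOVL6 stood at 121, 117, 118, 123 and 127 CPM in the SK-N-BE(2)C controls, 113, 130.2, 113, 122 and 122 after 24 h and 82.6, 63.1, 61.8, 79.5 and 83.9 after 7 d. IMR-32 controls gave 70.9, 76.3, 71.2, 74.5 and 51.5 CPM, the 24 h libraries 58.9, 41.9, 51.8, 56.1 and 39.9 and the 5 d libraries 41.9, 48.2, 42.7, 43.4 and 58.8. For SH-SY5Y, ELOVL6 was at 78.9, 79.5, 72.9, 79.4 and 86.3 CPM in controls, 72.7, 72.5, 75.3, 70.0 and 75.3 at 24 h and 50.8, 53.0, 56.0, 63.9 and 59.6 at 5 d. The 24 h libraries overlapped the controls in each line, and the longer-treated libraries were below all controls in SK-N-BE(2)C and SH-SY5Y. In IMR-32 replicate 5 was the lowest control (51.5 CPM) and the highest 5 d library (58.8 CPM). With longer PB ELOVL6 gave -0.70 ± 0.08 in SK-N-BE(2)C (adjusted p = 8.57e-07), -0.51 ± 0.13 in IMR-32 (adjusted p = 0.0041) and -0.51 ± 0.06 in SH-SY5Y (adjusted p = 1.79e-06). With a replicate block the IMR-32 call was lost (-0.50 ± 0.14), as it was without control replicate 2 or 4 or 5 d replicate 1, 3 or 4 (-0.49 to -0.47), and without replicate 5 the value was -0.69 ± 0.09. The SH-SY5Y call was lost without control replicate 5 or without 5 d replicate 1, 2 or 3 (-0.50 to -0.47).

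SCD (chr10:102106990-102124583), the delta-9 desaturase that makes oleate, had its largest log2 fold change in IMR-32. SCD stood at 1440.2, 1368, 1170.5, 1161 and 1218 CPM in the SK-N-BE(2)C controls, 1394, 1303, 1041, 1087 and 1086 after 24 h and 1198, 826, 699, 748 and 836 after 7 d. IMR-32 controls gave 1424, 1529, 1246, 1438 and 1114 CPM, the 24 h libraries 1184, 976, 982, 1132 and 827 and the 5 d libraries 514, 519, 508, 489.5 and 933. For SH-SY5Y, SCD was at 363, 448, 418, 492 and 469 CPM in controls, 392, 478, 437, 506 and 446 at 24 h and 338, 358, 361, 382 and 349 at 5 d. All 5 d libraries of IMR-32 were below all controls, with replicate 5 (933 CPM) nearest to them, and in SK-N-BE(2)C replicate 1 at 7 d lay within the control range. With longer PB SCD gave -0.55 ± 0.13 in SK-N-BE(2)C (adjusted p = 0.00111), -1.15 ± 0.16 in IMR-32 (adjusted p = 4.66e-05) and -0.31 ± 0.08 in SH-SY5Y (adjusted p = 0.00257), the last inside the limit. The SK-N-BE(2)C call was lost without 7 d replicate 3 (-0.49), and without replicate 5 IMR-32 gave -1.43 ± 0.08. ACACA, the carboxylase that makes malonyl-CoA, was called lower in SK-N-BE(2)C (-0.54 ± 0.08), a call lost without 7 d replicate 3 (-0.49), and stood at -0.36 ± 0.13 in IMR-32 and -0.49 ± 0.08 in SH-SY5Y.

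FASN (chr17:80036214-80056170), the fatty acid synthase, was called in no line. FASN stood at 1542, 1570.1, 1478, 1544 and 1527 CPM in the SK-N-BE(2)C controls, 1859.9, 1709, 1666, 1749 and 1751 after 24 h and 2024, 1975, 2287, 2014 and 2204 after 7 d. IMR-32 controls gave 3113, 2909, 2380.5, 2807 and 2265 CPM, the 24 h libraries 2805, 2270.4, 2415, 2805 and 2383 and the 5 d libraries 2499, 2188, 2218, 2145 and 3144. For SH-SY5Y, FASN was at 889.5, 851, 841, 1075 and 862 CPM in controls, 881, 928, 901, 931 and 1037 at 24 h and 843, 895, 875, 952 and 937 at 5 d. All treated SK-N-BE(2)C libraries were above all controls at both times, and in IMR-32 and SH-SY5Y the groups overlapped. With longer PB FASN gave 0.47 ± 0.05 in SK-N-BE(2)C (adjusted p = 5.72e-07), -0.11 ± 0.11 in IMR-32 (adjusted p = 0.461) and -0.02 ± 0.08 in SH-SY5Y (adjusted p = 0.792), all inside the limit of 0.5. ACLY, which supplies cytosolic acetyl-CoA from citrate, stood at -0.13 ± 0.09, -0.30 ± 0.09 and -0.11 ± 0.05.

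Of the 4 transport genes NPC1, NPC2 and STARD4 were called higher in SH-SY5Y with longer PB, NPC2 also in SK-N-BE(2)C and none in IMR-32. Of all genes 18.6%, 24.5% and 16.6% were called higher in these lines, in that order. ABCA1 was called higher in SK-N-BE(2)C and SH-SY5Y too, but its counts there were too low for the call to be independent of the filter. None of the 4 was called at 24 h in any line. ABCA1 (chr9:107543287-107690436), which exports cholesterol to apolipoprotein and is a target of the LXR receptors, had at most 135 reads in any library. ABCA1 stood at 0.30, 0.421, 0.106, 0.158 and 0.458 CPM in the SK-N-BE(2)C controls, 0.524, 0.164, 0.685, 0.519 and 0.655 after 24 h and 1.86, 4.96, 5.78, 3.11 and 5.58 after 7 d. IMR-32 controls gave 2.73, 3.09, 1.49, 2.27 and 0.608 CPM, the 24 h libraries 4.40, 3.31, 2.62, 4.94 and 0.663 and the 5 d libraries 0.778, 2.77, 0.994, 1.52 and 1.39. For SH-SY5Y, ABCA1 was at 0.579, 0.965, 0.484, 0.224 and 0.0487 CPM in controls, 0.440, 0.868, 0.389, 0.430 and 0.391 at 24 h and 2.56, 2.88, 1.66, 1.20 and 1.02 at 5 d. The 7 d and the 5 d libraries of SK-N-BE(2)C and SH-SY5Y were above all their controls, and those of IMR-32 lay within the control range. With longer PB ABCA1 gave 3.84 ± 0.41 in SK-N-BE(2)C (adjusted p = 4.21e-07), -0.41 ± 0.48 in IMR-32 (adjusted p = 0.495) and 1.98 ± 0.42 in SH-SY5Y (adjusted p = 4.99e-04). ABCA1 was rare, with 2 to 9 reads a library in the SK-N-BE(2)C controls against 28 to 135 after 7 d and 1 to 20 reads in the SH-SY5Y controls against 19 to 58 after 5 d, so the sizes of these folds are imprecise. Within both lines ABCA1 passed the filter on low counts through the longer-treated libraries alone and had to differ there, so these calls are given as values and support nothing. With no filter both were called as well.

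NPC2 (chr14:74942895-74960880), the soluble lysosomal protein that hands cholesterol to NPC1, also rose in those lines. NPC2 stood at 1.70, 0.888, 1.96, 1.42 and 1.15 CPM in the SK-N-BE(2)C controls, 1.57, 1.31, 0.933, 1.33 and 1.81 after 24 h and 3.26, 4.20, 4.24, 2.25 and 3.38 after 7 d. IMR-32 controls gave 1.39, 0.942, 1.55, 1.88 and 1.58 CPM, the 24 h libraries 0.681, 1.40, 1.39, 1.16 and 1.13 and the 5 d libraries 1.20, 1.03, 0.760, 1.41 and 0.635. For SH-SY5Y, NPC2 was at 17.4, 18.6, 22.3, 14.6 and 15.7 CPM in controls, 23.9, 25.1, 26.5, 21.9 and 20.8 at 24 h and 40.1, 36.1, 31.2, 24.1 and 24.2 at 5 d. The longer-treated libraries were above all controls in SK-N-BE(2)C and SH-SY5Y and overlapped them in IMR-32. With longer PB NPC2 gave 1.30 ± 0.24 in SK-N-BE(2)C (adjusted p = 1.35e-04), -0.50 ± 0.27 in IMR-32 (adjusted p = 0.133) and 0.80 ± 0.14 in SH-SY5Y (adjusted p = 5.85e-05). NPC2 in IMR-32 and SK-N-BE(2)C had between 11 and 99 reads a library. NPC1, the membrane protein of the same lysosomal exit, was called only in SH-SY5Y (0.60 ± 0.07, adjusted p = 1.27e-06), where its 5 d libraries (47.0 to 64.2 CPM) were above all controls (32.1 to 39.6 CPM). NPC1 in IMR-32 and SK-N-BE(2)C stood at -0.27 ± 0.10 and -0.00 ± 0.13.

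STARD4 (chr5:110831731-110848288), a soluble carrier of sterol between membranes, was called higher in SH-SY5Y. STARD4 stood at 271, 261, 216, 199 and 216 CPM in the SK-N-BE(2)C controls, 341, 347, 236, 249 and 245 after 24 h and 405, 195, 104, 222 and 229.8 after 7 d. IMR-32 controls gave 154, 178, 156, 161 and 101 CPM, the 24 h libraries 161, 152, 153, 152 and 74.4 and the 5 d libraries 128, 163, 123, 162 and 107. For SH-SY5Y, STARD4 was at 116, 151, 118, 129.9 and 128 CPM in controls, 164, 229, 169, 206 and 159 at 24 h and 258, 278, 248, 263 and 159 at 5 d. All treated libraries of SH-SY5Y were above all controls at both times, with replicate 5 (159 CPM) the lowest at 5 d. The 7 d libraries of SK-N-BE(2)C spread from 104 to 405 CPM, on both sides of the controls. With longer PB STARD4 gave -0.00 ± 0.26 in SK-N-BE(2)C (adjusted p = 0.993), -0.09 ± 0.19 in IMR-32 (adjusted p = 0.715) and 0.89 ± 0.13 in SH-SY5Y (adjusted p = 2.47e-05).

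**Figure D4:**
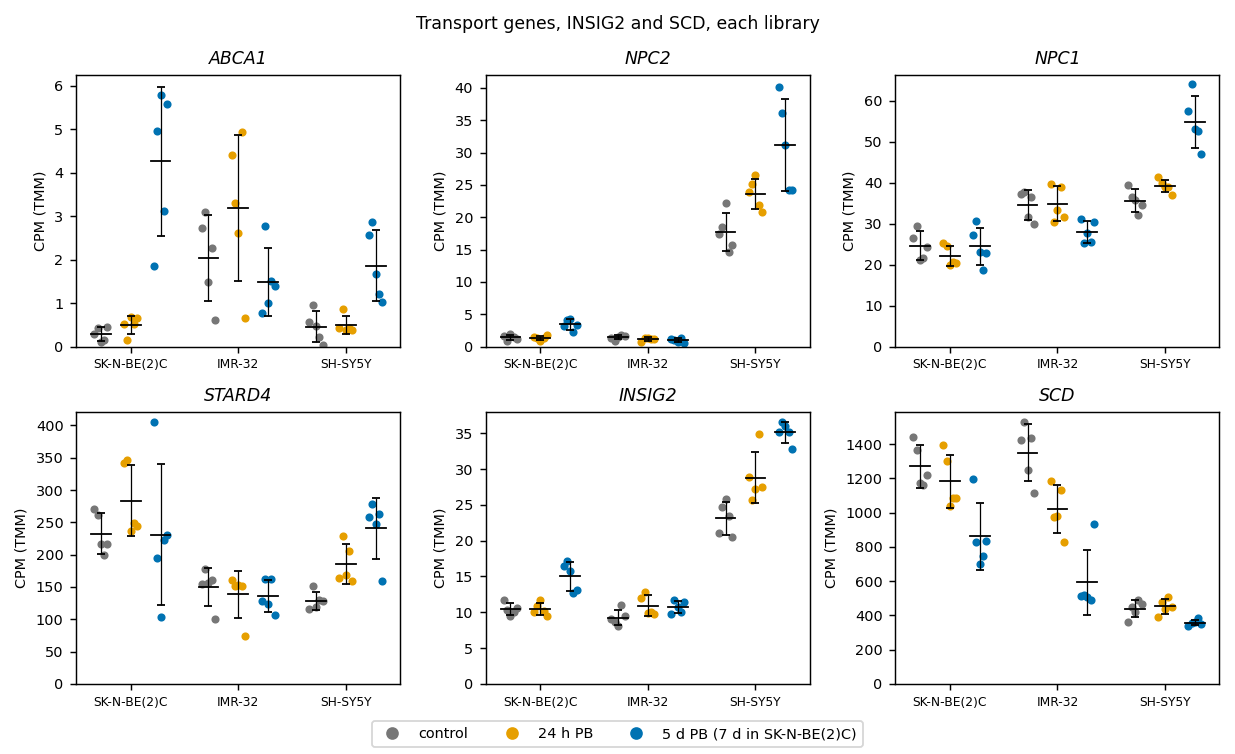
CPM of each library (points) for the transport genes ABCA1, NPC2, NPC1 and STARD4 and for INSIG2 and SCD, by line, with group means (lines) and SD (bars, n = 5). The longer-treated libraries (blue) of ABCA1, NPC2 and INSIG2 lie above the controls in SK-N-BE(2)C and SH-SY5Y but not in IMR-32.

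Between 24 h and the longer time, a comparison of treated groups only, 17 members were called in SK-N-BE(2)C and 3 in each of the other lines. Without the fold change limit the counts were 23 for SK-N-BE(2)C, 9 for IMR-32 and 27 for SH-SY5Y, where 59.3%, 34.4% and 43.5% of all genes were called. In SK-N-BE(2)C 14 members were called lower and 3 higher at 7 d than at 24 h, where 14.4% of all genes were called lower and 17.5% higher. The 14 were 10 sterol enzymes and 4 of fatty acid synthesis, among them CYP51A1 (-0.70 ± 0.15), FADS1 (-0.83 ± 0.12) and ELOVL6 (-0.69 ± 0.08), and the 3 were INSIG2, NPC2 and ABCA1, the last of which passed the filter through its 7 d libraries alone. Of the 14, MSMO1, EBP and FADS2 each lost the call in 10 refits without a library or replicate number. The count of 17 was 10 without 7 d replicate 3, 9 without replicate number 2 and 24 without 7 d replicate 1. Shares of all genes in those refits are not given, so the changes in count cannot be read as particular to the members. In IMR-32 3 members were called lower, FDFT1 (-0.55 ± 0.14), INSIG1 (-1.01 ± 0.27) and SCD (-0.75 ± 0.16), and none higher, against 8.86% and 10.8% of all genes. Without replicate 5 of all IMR-32 groups 11 were called lower, without its 5 d library alone 8, without its 24 h library alone 6, and without number 2 or 4 it was 1, SCD. For these refits, and those of SH-SY5Y below, shares of all genes are not given either. With a replicate block 5 were called, with SREBF1 (-0.53 ± 0.18) and ABCA1 (-0.97 ± 0.36) added. In SH-SY5Y HMGCS1 (-0.80 ± 0.13) and INSIG1 (-0.85 ± 0.15) were called lower and ABCA1 (1.89 ± 0.43) higher, against 6.23% and 10.5%. ABCA1 passed the filter there through its 5 d libraries alone, so its call is not independent of the filter. That count of 3 was 5 without 24 h replicate 2, 6 without 5 d replicate 3 and 7 without 5 d replicate 5, and 6 and 5 without numbers 3 and 5. In these comparisons the 24 h group is shared with the 24 h comparison against control.

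Whether the lines answered differently was tested as the difference of their log2 fold changes in 1 fit over all 45 libraries. At 24 h edgeR called no member in any pair of lines, where 4.49% of 16282 genes were called between SK-N-BE(2)C and IMR-32, 2.04% between SK-N-BE(2)C and SH-SY5Y and 3.07% between IMR-32 and SH-SY5Y. DESeq2 called none either, and 2, 1 and 6 members had an unadjusted p under 0.05, as did 20.2%, 15.8% and 16.8% of all genes. With longer PB 7 of the 34 members were called between SK-N-BE(2)C and IMR-32, where 23.9% of all genes were. With a replicate block the count was 9 (4 higher and 5 lower in SK-N-BE(2)C, against 26.1% of all genes), and without replicate number 1 it was 10 (3 higher and 7 lower, against 22.6%). The response was lower in SK-N-BE(2)C for ACAT2 (-1.01 ± 0.26, adjusted p = 0.00278), MVD (-0.64 ± 0.20, adjusted p = 0.0104) and FADS1 (-0.76 ± 0.15, adjusted p = 1.01e-04). It was higher there for FASN (0.60 ± 0.12, adjusted p = 1.70e-04), SCD (0.63 ± 0.19, adjusted p = 0.0103), NPC2 (1.83 ± 0.33, adjusted p = 2.86e-05) and ABCA1 (4.28 ± 0.68, adjusted p = 5.00e-06). The call was lost for MVD without replicate number 5 (-0.45) and for SCD without number 1, 2 or 4 (0.47, 0.58 and 0.55). SK-N-BE(2)C was treated for 7 d and the others for 5 d, so line and duration cannot be told apart in these comparisons.

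Between SK-N-BE(2)C and SH-SY5Y 5 members were called, against 21.2% of all genes, and the 5 were lower in SK-N-BE(2)C. With a replicate block 9 were called, against 24.2% of all genes, of which ABCA1 (1.73) was higher, and DESeq2 called 7, against 22.2% of all genes, of which FASN (0.50) and ABCA1 (1.89) were higher. They were ACAT2 (-0.87 ± 0.27, adjusted p = 0.0105), CYP51A1 (-0.68 ± 0.16, adjusted p = 0.00152), FADS1 (-0.67 ± 0.15, adjusted p = 5.84e-04), STARD4 (-0.92 ± 0.30, adjusted p = 0.0188) and NPC1 (-0.63 ± 0.15, adjusted p = 0.00111). ACAT2 lost the call without number 2 or 3 (-0.71 and -0.73) and STARD4 without number 2, 3 or 4 (-0.83, -0.72 and -0.93). The count was 9 without replicate number 1 and 3 without number 3, against 21.1% and 16.1% of all genes. IMR-32 and SH-SY5Y, both at 5 d, differed in 6 members, against 20.8% of all genes, and all 6 were lower in IMR-32. They were SREBF1 (-0.87 ± 0.28, adjusted p = 0.0162), SCD (-0.90 ± 0.19, adjusted p = 4.19e-04), STARD4 (-1.04 ± 0.30, adjusted p = 0.00811), NPC1 (-0.93 ± 0.15, adjusted p = 6.35e-06), NPC2 (-1.36 ± 0.30, adjusted p = 5.26e-04) and ABCA1 (-2.46 ± 0.65, adjusted p = 0.0036). SREBF1 lost the call without number 1, 2, 3 or 4 (-0.71, -0.88, -0.84 and -0.90). Without replicate number 5 the count was 13, all lower in IMR-32, against 23.9% of all genes. All 4 transport genes were in this set.

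The control levels of the members differed between lines, as did those of most genes. Of the 34 members 14 were called between SK-N-BE(2)C and IMR-32, 28 between SK-N-BE(2)C and SH-SY5Y and 26 between IMR-32 and SH-SY5Y, where 62.1%, 57.5% and 54.2% of all genes were called. SH-SY5Y had the lowest control level of SQLE (70.8 ± 8.68 CPM, mean ± SD), with 346 ± 18.4 in IMR-32 and 366 ± 34.8 in SK-N-BE(2)C. SREBF2 was likewise at 149 ± 14.6 CPM in SH-SY5Y, 544 ± 104 in IMR-32 and 622 ± 39.6 in SK-N-BE(2)C. The log2 difference of SQLE was 2.37 ± 0.15 between SK-N-BE(2)C and SH-SY5Y and 2.29 ± 0.15 between IMR-32 and SH-SY5Y, and that of SREBF2 was 2.06 ± 0.10 and 1.87 ± 0.10. Between SK-N-BE(2)C and IMR-32 neither SQLE (0.08 ± 0.15) nor SREBF2 (0.19 ± 0.09) was called. NPC2 had the opposite order, at 17.7 ± 2.98 CPM in SH-SY5Y, 1.47 ± 0.343 in IMR-32 and 1.42 ± 0.426 in SK-N-BE(2)C. SC5D was called in all 3 pairs, with 138 ± 8.44 CPM (SK-N-BE(2)C), 42.0 ± 2.51 (SH-SY5Y) and 26.7 ± 1.48 (IMR-32). Each of these levels is that of 1 cell line.

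Other genes of the pathways, taken from lists that did not overlap the members, were counted in the same comparisons. Of 18 genes of the sterol branches and of SREBP processing, 7 of 17 tested were called lower at the longer time in SK-N-BE(2)C, as were 6 of 18 for IMR-32 and 5 of 17 for SH-SY5Y, and 2, 0 and 2 were called higher. The shares called lower were 41.2%, 33.3% and 29.4% of the list, against 22.3%, 15.5% and 17.3% of all genes in the same order. Those called higher were 11.8%, 0.0% and 11.8%, against 24.5%, 16.6% and 18.6%. Among those called lower in all 3 lines were LBR, TMEM97, a sterol-regulated receptor of the endoplasmic reticulum, with -1.27 ± 0.15 in SK-N-BE(2)C (adjusted p = 1.19e-06), -0.69 ± 0.08 in IMR-32 (adjusted p = 6.42e-06) and -1.27 ± 0.20 in SH-SY5Y (adjusted p = 4.36e-05), and ERLIN1, a protein of cholesterol-rich membrane of the same compartment, with -1.32 ± 0.07 in SK-N-BE(2)C (adjusted p = 3.12e-10), -1.34 ± 0.10 in IMR-32 (adjusted p = 2.01e-07) and -0.72 ± 0.10 in SH-SY5Y (adjusted p = 8.83e-06). All 3 were also called lower at 24 h in each line. Of 25 genes of fatty acid activation and elongation, 6 of 21, 6 of 23 and 5 of 23 tested were called lower and 4, 1 and 4 higher. These were 28.6%, 26.1% and 21.7% lower, against 22.3%, 15.5% and 17.3% of all genes, and 19.0%, 4.35% and 17.4% higher, against 24.5%, 16.6% and 18.6%. ACSL3, an acyl-CoA synthetase of lipid droplets, was lower in all lines (-0.91 ± 0.13, -0.56 ± 0.13 and -0.64 ± 0.05), as was the elongase ELOVL5 (-0.77 ± 0.08, -0.54 ± 0.09 and -0.59 ± 0.06). ACSL6, an acyl-CoA synthetase of brain, was higher in all (3.27 ± 0.36, 1.10 ± 0.38 and 1.85 ± 0.24).

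Of 20 genes of sterol efflux, storage and LXR signalling, 18 were tested in each line, and 5, 1 and 7 were called higher and 3, 1 and 3 lower at the longer time. The shares called higher were 27.8%, 5.56% and 38.9%, against 24.5%, 16.6% and 18.6% of all genes, and 16.7%, 5.56% and 16.7% were called lower, against 22.3%, 15.5% and 17.3%. ABCG4, a sterol exporter of neural cells, was higher in all lines at 24 h (1.02 ± 0.20, 0.68 ± 0.21 and 1.28 ± 0.26) and later (2.33 ± 0.20, 1.17 ± 0.21 and 2.20 ± 0.25). SOAT1, which esterifies cholesterol for storage, was lower at 24 h (-1.10 ± 0.09, -1.10 ± 0.20 and -0.87 ± 0.06) and later (-1.85 ± 0.09, -0.83 ± 0.20 and -0.70 ± 0.06). GRAMD1A, which moves sterol from the plasma membrane, was called higher in all lines at 24 h (0.61 ± 0.06, 0.63 ± 0.18 and 0.52 ± 0.07), and later in SK-N-BE(2)C and SH-SY5Y but not in IMR-32 (1.12 ± 0.07, 1.06 ± 0.07 and 0.43 ± 0.18).

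Markers of cell cycle and cell identity moved in the same comparisons. All 10 S phase genes on a fixed list were called lower at 24 h in each line, where 10.6%, 10.5% and 11.0% of all genes were. At the longer time 10, 8 and 10 of them were called lower in the 3 lines, in the order used above, against 22.3%, 15.5% and 17.3%. Their summed level was 3384 to 3502 CPM in the SK-N-BE(2)C controls, 1055 to 1399 at 24 h and 985 to 1583 at 7 d. In IMR-32 it was 2260.0 to 3299.7, 515 to 899 and 1189.6 to 1723 CPM, and 10 of 10 were called higher at 5 d than at 24 h, against 10.8% of all genes. In SH-SY5Y it was 2287 to 2581, 625 to 785 and 630.0 to 1256 CPM. At the longer time against 24 h 4 of 10 were called higher in SH-SY5Y, against 10.5% of all genes. SK-N-BE(2)C had 0 called higher and 1 lower, against 17.5% and 14.4%. All 9 adrenergic markers were above 0 in every group, with summed levels of 3148 to 3676, 2146 to 3218 and 4285 to 5725 CPM in the controls. At the longer time 1 of 9 was called higher and 1 lower in each line, or 11.1% each way. Of all genes 24.5%, 16.6% and 18.6% were called higher there and 22.3%, 15.5% and 17.3% lower. At 24 h 1, 4 and 2 of the 9 were called higher and none lower, where 10.9%, 7.87% and 10.5% of all genes were called higher. Of 9 mesenchymal markers, 8 were in the tables and 6, 6 and 7 were tested, of which 4, 5 and 6 were called lower and 1, 0 and 0 higher at the longer time, where 22.3%, 15.5% and 17.3% of all genes were called lower. At 24 h 1, 1 and 4 were called lower and 1, 0 and 0 higher, against 10.6%, 10.5% and 11.0% of all genes called lower. Summed mesenchymal levels fell from 659.9 to 887, 608 to 1146 and 1291 to 1721 CPM in the controls to 419 to 713, 265 to 454 and 818 to 977. RUNX1 had 0 reads in all treated SH-SY5Y libraries but did not pass the filter on low counts in that line, so no fall is read from it. The part of these markers in the fall of the synthesis genes was not tested. In bulk RNA fewer cells of a kind and less RNA per cell cannot be told apart.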

How the data were processed

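The authors deposited whole-number read counts per gene for each of the 45 libraries, 1 table per line. Per the labels and the study's methods, reads were trimmed with Trim Galore 0.6.4, aligned to hg19 and counted with STAR (2.6.1d in the submitters' processing notes). The study names a directional library kit, but the annotation and the strand counted are not stated, so overlapping genes can share reads. Deposited CPM tables and the authors' own fold changes and adjusted p-values were not used.

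Counts were fitted line by line with edgeR 4.0.16 (R 4.3.3) after filterByExpr (minimum count 10) and TMM scaling, with group means and quasi-likelihood tests. P-values were adjusted by the Benjamini-Hochberg method over all genes tested, and a call also needed a log2 fold change beyond 0.5. Differences between lines came from 1 fit over the 45 libraries. The fitting was tested on simulated data. Alternatives were DESeq2 1.42.0, RLE factors, library size alone, no filter, no fold change limit, a replicate block, and leaving out each library or replicate number.

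Same-numbered libraries of 2 groups of a line deviated together (each of the 5 correlations over 0.1) in 6 of 9 pairs of groups, all pairs but SK-N-BE(2)C 24 h and 7 d, IMR-32 control and 24 h, and SH-SY5Y control and 5 d. This pairing comes from the data and not from a label, so the block is an alternative.

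Depth was 13459219 to 25441812 counts a library. The spread between replicates (biological coefficient of variation) was 11.2% for SH-SY5Y, 13.8% for SK-N-BE(2)C and 19.8% for IMR-32. The members and gene lists were chosen with earlier results of these data known. Values in every library are given for members called alike in all 3 lines and for those with the largest rise or fall of each role group in a line. The ranges of NPC1, SREBF1, SCAP and DHCR7 were added after their values were seen. Gene positions are from GENCODE on GRCh37, and promoter windows from RefSeq on GRCh38.p14.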

Additional observations from a re-analysis of the deposited data

Results flagged for a closer look

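Among 306 sets of 5 libraries (34 members in 9 groups), 35 (11.4%) had 1 library whose gap to its neighbour was over 0.71 of the range of the set, where chance gives about 1 in 20 sets. Of these, 16 belonged to the 14 members whose values are given for every library. IMR-32 replicate 5 was the high library at 5 d for 10 members, among them ACAT2 (81.6 CPM), FDPS (175 CPM), SQLE (294 CPM), INSIG1 (55.3 CPM) and SCD (933 CPM). In the IMR-32 controls replicate 5 was the low library for TM7SF2 (4.44 CPM), FADS1 (559.9 CPM) and ELOVL6 (51.5 CPM), and at 24 h for TM7SF2 (14.2 CPM) and STARD4 (74.4 CPM). SK-N-BE(2)C replicate 1 was the high library for SCD at 7 d (1198 CPM) and for FADS1 at 24 h (200.2 CPM). Single SH-SY5Y libraries stood apart for FDPS at 24 h (replicate 2, 87.6 CPM), FASN in the controls (replicate 4, 1075 CPM), STARD4 at 5 d (replicate 5, 159 CPM) and ABCA1 at 24 h (replicate 2, 0.868 CPM).

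The longer response differed between lines by the test of the difference itself for 18 pairs of a member and a pair of lines. They were 7, 5 and 6 of the 34 members, where 23.9%, 21.2% and 20.8% of all genes were called. Between SK-N-BE(2)C and IMR-32 the log2 differences were -1.01 for ACAT2, -0.64 for MVD, -0.76 for FADS1, 0.60 for FASN, 0.63 for SCD, 1.83 for NPC2 and 4.28 for ABCA1. SK-N-BE(2)C minus SH-SY5Y gave -0.87 for ACAT2, -0.68 for CYP51A1, -0.67 for FADS1, -0.92 for STARD4 and -0.63 for NPC1. IMR-32 minus SH-SY5Y gave -0.87 for SREBF1, -0.90 for SCD, -1.04 for STARD4, -0.93 for NPC1, -1.36 for NPC2 and -2.46 for ABCA1. The SK-N-BE(2)C values compare 7 d with 5 d, and the low counts of ABCA1 and NPC2 make their differences imprecise.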

How the results depend on the processing

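Of the alternatives' values, 296 of the counts of members stayed within 1.5 times the reported count and 34 did not. No called member changed sign under the alternatives run. Dropping the fold change limit raised the counts against control at 24 h from 2 to 7 for SK-N-BE(2)C, from 5 to 17 for SH-SY5Y and from 3 to 8 for IMR-32, and at 5 d from 16 to 27 for SH-SY5Y and from 14 to 24 for IMR-32. It raised the counts of 5 d against 24 h from 3 to 27 for SH-SY5Y and from 3 to 9 for IMR-32, and the longer differences from 5 to 8 (SK-N-BE(2)C and SH-SY5Y) and from 6 to 10 (IMR-32 and SH-SY5Y). The share of all genes called rose too, at 24 h from 21.5% to 46.8% for SK-N-BE(2)C, from 21.5% to 49.2% for SH-SY5Y and from 18.3% to 33.1% for IMR-32, at 5 d from 35.9% to 65.4% and from 32.0% to 51.0%, for 5 d against 24 h from 16.7% to 43.5% and from 19.6% to 34.4%, and for the differences from 21.2% to 31.6% and from 20.8% to 30.6%. The 24 h difference of SK-N-BE(2)C and IMR-32 gave 1 member in place of 0 without the limit, with library size alone or with no filter, and library size alone gave 5 in place of 3 for IMR-32 at 24 h. By that scaling SQLE and ELOVL6 (both -0.44) lost their calls in SH-SY5Y at 5 d, and ACACA (-0.49) in SK-N-BE(2)C at 7 d, while SCAP in SH-SY5Y (0.55) and FASN in SK-N-BE(2)C (0.51) gained one.

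Leaving out 1 library or replicate number gave 9 to 24 members for 7 d against 24 h in SK-N-BE(2)C, 3 to 6 for IMR-32 at 24 h, 1 to 11 for IMR-32 at 5 d against 24 h, 3 to 7 for SH-SY5Y at 5 d against 24 h, 0 to 1 for the 24 h difference of IMR-32 and SH-SY5Y, 3 to 9 for the longer difference of SK-N-BE(2)C and SH-SY5Y, and 5 to 13 for that of IMR-32 and SH-SY5Y. With a replicate block 5 members in place of 3 were called for IMR-32 at 5 d against 24 h and 9 in place of 5 for the longer difference of SK-N-BE(2)C and SH-SY5Y. Shares of all genes are given above for only some of these refits, so such counts are not read as particular to the members. Where the numbers did not pair the groups, the replicate block also added TM7SF2 in IMR-32 at 24 h (adjusted p = 0.0171) and FDPS and INSIG1 at 7 d against 24 h in SK-N-BE(2)C, and apart from these and the changes given beside the results it changed no call against control. The cause was not tested. Controls held at most 20 reads of ABCA1 a library for SH-SY5Y and 9 for SK-N-BE(2)C, which limits its fold changes, and no comparison had controls of the longer time.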
